A study of Schima superba and Cryptocarya concinna with 24 samples.

Results

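The light response of Schima superba leaves was compared between leaf ages, that is, whether growth in full sunlight instead of shade changed transcript levels in young leaves by the same amount as in mature leaves. Schima superba is a broad-leaved evergreen tree of subtropical forest. Its seedlings came from the forest of Dinghu mountain and grew either at 100% of full sunlight (full light) or under 2 layers of black nylon net at 30% of it (low light). Young and mature leaves gave 4 groups of 3 libraries: young full light, young low light, mature full light and mature low light, 12 of the 24 libraries of the study. The labels give no leaf age in days, no length of light treatment and no word on whether replicates are separate plants; p-values therefore measure only how far these libraries spread, which may be technical.

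The 12 libraries were chosen by their labels, and the features by their level, with no use of the light response. The table held FPKM (fragments scaled to transcript length and library total) for 57053 unigenes, which are assembled transcripts. Of these, 50970 had at least 1 FPKM in at least 3 of the 12 libraries and were tested, and 6083 were not. Just inside this limit lay 2547 unigenes, at 1 FPKM or more in exactly 3 libraries, whose median mean level was 0.761 FPKM. Just outside lay 2367, in exactly 2 libraries, with a median mean level of 0.576 FPKM. A light effect is the mean of log2(FPKM + 1) in full light minus that in low light, and a difference is the light effect in young leaves minus the light effect in mature leaves. A positive difference therefore means a light effect that was more positive in young leaves. A unigene was called at an adjusted p under 0.05 from limma, a linear model for gene tables fitted here to all 50970 unigenes, and the pseudocount of 1 FPKM understates changes of low unigenes.

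Leaves of shade-grown plants invest in light-harvesting antenna, which capture photons, while sunlit leaves carry relatively more carbon-fixing capacity, more phenolic screens and more protection against heat and excess light. A young leaf is still dividing and expanding and imports sugar, whereas a mature leaf exports it, so the same light falls on tissues in different states. Small heat shock proteins hold unfolding proteins in a soluble state without using ATP, histones package newly made DNA, and expansins and pectin enzymes loosen the walls of growing cells.

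Library facts come before the results because they bear on all of them. Summed FPKM ran from 769593 to 867163 per library, and the steps between low values put depth at 0.947 to 1.02 times that of young full light replicate 1. This estimate searched a narrow range of ratios only, so a large difference in depth could not have shown. The number of unigenes at 1 FPKM or more was 42892 to 43905 in young and 32295 to 38815 in mature libraries, and the 100 most abundant unigenes took 11.7 to 20.3% of summed FPKM in young and 27.3 to 33.2% in mature libraries. The part of this difference in composition in the calls was not tested. Fragment totals are not part of the table, so no counting interval is given. The antenna list summed to between 11754 and 48709 FPKM in each library, as leaf tissue should hold. Young low light replicates 2 and 3 were closer to each other than other replicates, with an SD of log2 ratios of 0.368 (r = 0.959 across unigenes) against 0.765 to 1.37 (r = 0.858 to 0.889) in the 11 other replicate pairs. Their values were not identical and both were kept, but the spread of that group is small because of them. Averaged into 1 library, they left 93 calls in place of 822.

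The light effect differed between leaf ages for 822 of 50970 unigenes (1.61%). It was more positive in young leaves for 564 (1.11%) and more negative for 258 (0.506%). The light effect on its own was called for 2717 unigenes in young leaves (5.33%), 1537 higher in full light (3.02%) and 1180 lower (2.32%). In mature leaves it was called for 436 (0.855%), 130 higher (0.255%) and 306 lower (0.6%). The median difference over the unigenes tested was 0.17, from medians of 0.066 in young and -0.094 in mature leaves. With median-ratio rescaling the median difference was 0.03, and the share of calls that were more positive went from 68.6% to 48.3% of 731 calls. Quantile normalization gave 50.1% of 888. Directions of groups below are therefore read against that shift. In bulk samples such as these, fewer cells of a type and less RNA per cell cannot be told apart.

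Calls seldom came from opposite responses that both passed the test, although the light effects mostly differed in sign between ages. The signs were opposite for 723 of the 822 (88%, against 48.2% of the unigenes tested), which the contrast itself favours. Of the 822, the light effect itself was called in young leaves only for 512 (62.3%, against 5.21% of the unigenes tested). It was called in mature leaves only for 138 (16.8%, against 0.74%) and at neither age for 151 (18.4%, against 93.9%). It was called at both ages in opposite directions for 21 (2.55%, against 0.0412%). These 21 were all of the 822 with light called at both ages. Of the 564 more positive unigenes, 461 had their highest group mean in young full light (81.7%, against 40.5% of the unigenes tested) and 94 in mature low light (16.7%, near the 16.9% of the unigenes tested). Of the 258 more negative ones, 139 were highest in mature full light (53.9%, against 14.3%), 105 in young low light (40.7%, against 28.3%) and 0 in young full light. The contrast itself favours such groups. Of the 822, 677 (82.4%, against 76.9% of the unigenes tested) had a group mean of at least 1 FPKM at each age, 120 (14.6%, against 18.4%) were under 1 FPKM in both mature groups and 25 (3.04%, against 5.7%) in both young groups. Among the 822, 46 reached 1 FPKM in the 3 libraries of a single group and in no other library, and such unigenes had to differ to pass the limit on low values.

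**Figure D1:**
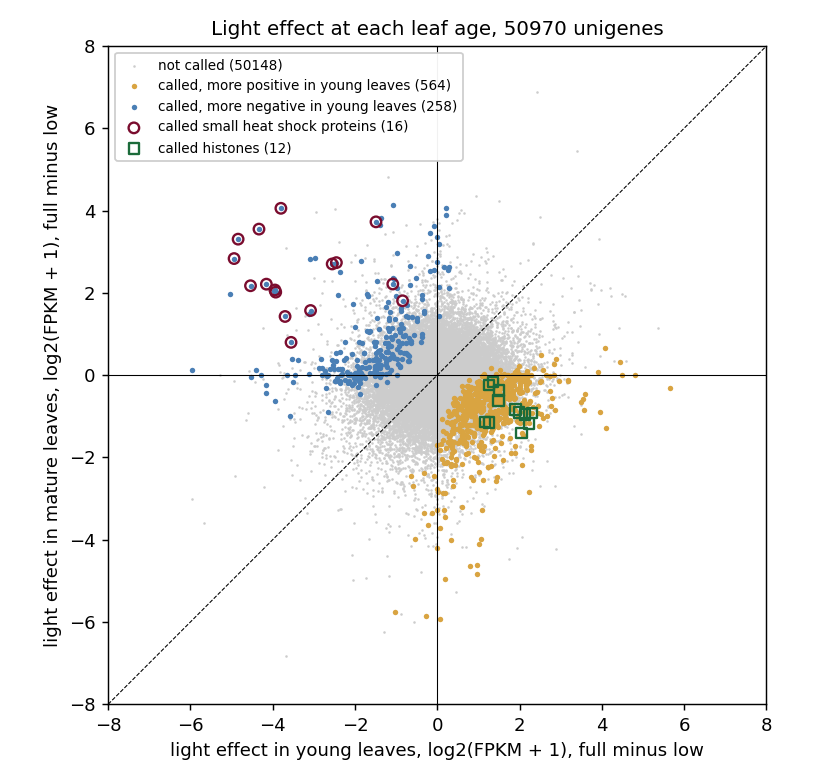
Light effect in young leaves (horizontal) against that in mature leaves (vertical), both full minus low light on the log2(FPKM + 1) scale, for 50970 unigenes, with the 564 and 258 called unigenes in colour. The 16 called small heat shock proteins lie in the upper left, where full light goes with lower levels in young leaves and higher ones in mature leaves, and the 12 called histones in the lower right.

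Small heat shock proteins showed opposite light responses at the 2 ages. Of 28 unigenes tested, 16 were called as more negative in young leaves (57.1%, against 0.506% of the unigenes tested) and 0 with a more positive one. The list median was a difference of -4.50, made of a light effect of -1.97 in young leaves and 1.91 in mature leaves. In young leaves 13 of the 28 fell in full light and 0 rose (against 2.32 and 3.02% of the unigenes tested). In mature leaves 6 rose and 0 fell (against 0.255 and 0.6%). Of the 34 unigenes that matched the list, 6 were too low to be tested. Together these 34 summed to 134, 109 and 94.4 FPKM in young full light and 2167, 1444 and 1490 FPKM in young low light. In mature leaves the sums were 3228, 3201 and 5084 FPKM under full and 461, 517 and 2680 FPKM under low light. The groups did not overlap at either age, and mature low light replicate 3 stood far above the other libraries of its group.

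Class II small heat shock proteins, which act in the cytosol, had the largest differences among described unigenes. A 17.3 kDa class II protein (CL4946.Contig2) stood at 46, 19.9 and 12.7 FPKM in young full light, 1011, 584 and 535 in young low light, 261, 163 and 466 in mature full light, and 35.8, 12.7 and 40.4 in mature low light. Its levels were low in young full light and mature low light and high in the other 2 groups, and full and low light did not overlap at either age (difference -8.15, SE 0.78, adjusted p = 0.0034). The light effect was -4.84 (adjusted p = 0.00278) in young leaves and 3.3 (adjusted p = 0.0254) in mature leaves. A 17.9 kDa class II protein (CL2489.Contig2) had 7.96, 4.27 and 3.25 FPKM in full and 178, 117 and 76.9 in low light in young leaves, and 95, 37.1 and 165 in full and 9.91, 3.09 and 7.5 in low light in mature leaves. Its pattern was the same crossing, at lower levels (difference -7.88, SE 0.77, adjusted p = 0.00346). CL2489.Contig3, another 17.9 kDa contig, gave a difference of -7.86 (adjusted p = 0.00213), with light effects of -3.8 in young and 4.05 in mature leaves. CL4946.Contig3 differed by -7.77, CL4946.Contig1 by -5.12 and Unigene9065 by -5.94. CL4946.Contig1 was highest in young low light, at 32.1, 19.5 and 21 FPKM, while in Unigene9065 mature full light was highest, at 156, 105 and 403 FPKM.

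Class I small heat shock proteins, also cytosolic, are described here by their 8 called contigs, each with its highest group mean in mature full light. HSP18.1A (CL529.Contig6) stood at 2.41, 3.84 and 1.91 FPKM in young full light, 86.1, 72.2 and 93.8 in young low light, 948, 512 and 1185 in mature full light, and 76.8, 123 and 655 in mature low light. Mature low light replicate 3 lay within the range of mature full light and the other libraries of that group did not (difference -6.71, SE 0.89, adjusted p = 0.0119). An 18.1 kDa protein (CL529.Contig2) had 0.45, 0.92 and 1.41 FPKM in full and 4.07, 4.05 and 4.81 in low light in young leaves, and 157, 51.2 and 216 in full and 6.32, 13.3 and 6.41 in low light in mature leaves. Here the mature groups did not overlap, the young groups stayed under 5 FPKM (difference -5.21, SE 0.65, adjusted p = 0.00953), and light alone was called only in mature leaves (3.72, adjusted p = 0.00714). A 17.4 kDa protein (CL529.Contig3) differed by -5.19, with light called at both ages in opposite directions (-2.45 and 2.73). An 18.2 kDa protein (CL529.Contig4) differed by -5.26, again with both ages called (-2.55 and 2.7). CL529.Contig7 and CL529.Contig5 differed by -6.36 and -6.02. The 18.5 kDa contigs CL529.Contig9 and CL529.Contig15, chosen after their values were seen, differed by less, at -3.3 and -2.65 (adjusted p = 0.048 and 0.0467).

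Among forms of organelles, 2 called members, chosen after their values were seen, were low in young full light too. Another chloroplast form (Unigene7418) was not called (difference -3.81, adjusted p = 0.254), and its young groups overlapped. A mitochondrial form (Unigene2107) was not called either (difference -0.74, adjusted p = 0.605). A chloroplast small heat shock protein (Unigene6879) had 0.80, 1.37 and 0.34 FPKM in full and 33.1, 10.2 and 8.02 in low light in young leaves, and 229, 228 and 250.1 in full and 42.5, 51.6 and 221 in low light in mature leaves. Young full light was lowest and mature full light highest, with mature low light replicate 3 just below it (difference -4.65, SE 0.85, adjusted p = 0.031). The peroxisomal 15.7 kDa protein (Unigene33483) had 17.9, 12.5 and 18.7 FPKM in full and 247, 156 and 208 in low light in young leaves, and 180.02, 66.1 and 176 in full and 61.9, 80.5 and 79 in low light in mature leaves. Its young groups lay far apart and its mature groups overlapped (difference -4.35, SE 0.50, adjusted p = 0.00691). Light was called in its young leaves (-3.55) and not in its mature leaves (0.80, adjusted p = 0.349). Contigs with 1 CL number are taken as similar sequences between which the authors' counting could split fragments, so clusters were also summed. The 28 unigenes came from 13 clusters, of which 6 were called after summing and 0 were more positive. The sums of CL4946, CL2489 and CL529 differed by -8.09, -8.23 and -4.16 (adjusted p = 0.00267, 0.00188 and 0.0249).

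**Figure D2:**
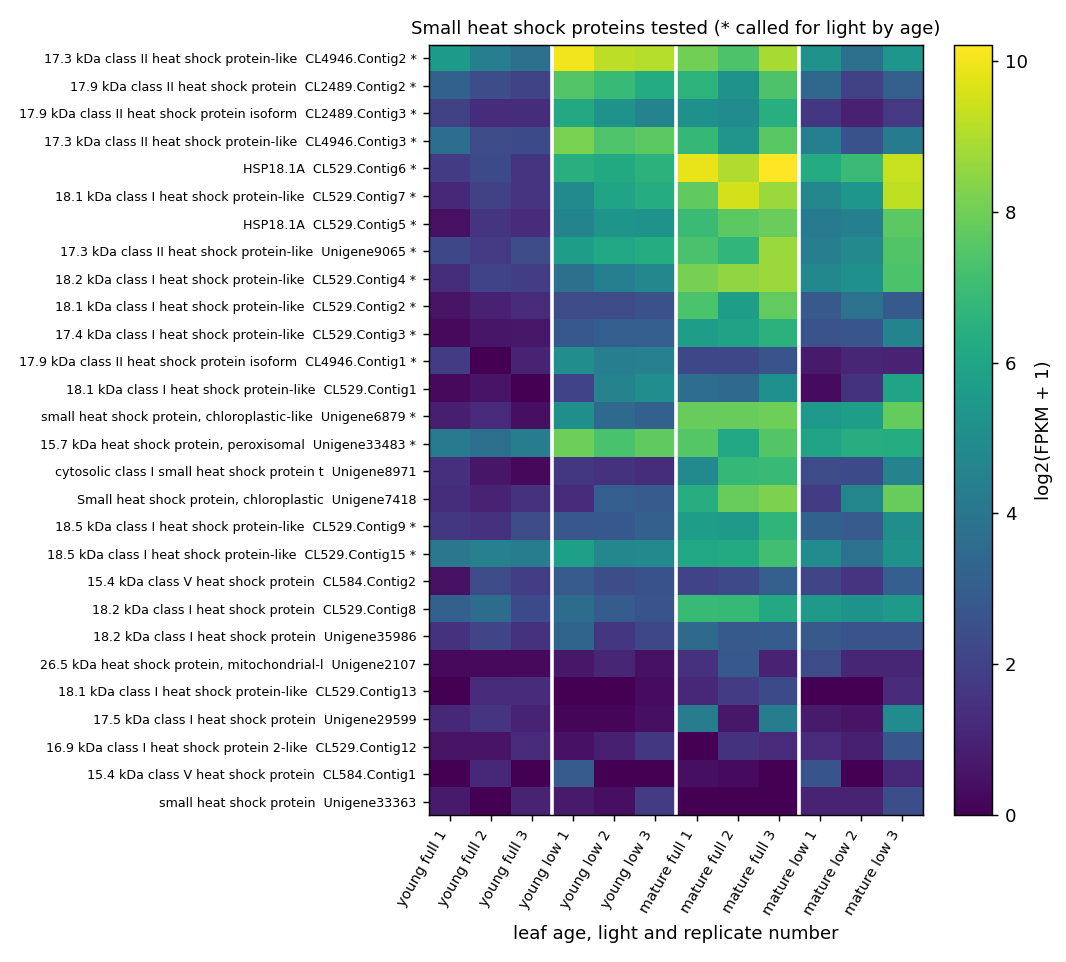
Level of each of the 28 tested small heat shock protein unigenes as log2(FPKM + 1) in the 12 libraries, ordered by their difference, with asterisks on the 16 called. Young full light is dark in nearly every called row, and young low light and mature full light are brighter in those rows. Mature low light replicate 3 is brighter than the 2 other mature low light libraries in most called class I rows, but not in CL529.Contig2.

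The number of called small heat shock proteins was 9 to 18 over the 12 fits that left out 1 library, lowest without young low light replicate 2 or 3, and 0 were more positive in any of them. Without both low light libraries numbered 1 it was 10 of 27. The calls of CL529.Contig7, CL529.Contig5, Unigene9065, CL529.Contig4, Unigene6879, CL529.Contig9 and CL529.Contig15 ended without young low light replicate 2 (adjusted p = 0.125, 0.0858, 0.0752, 0.0591, 0.0808, 0.122 and 0.099) and without 1 to 10 other single libraries each.

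Larger chaperones held few calls, and their more positive share was near that of the unigenes tested. These proteins fold or refold clients with ATP, together with co-chaperones. Of 152 unigenes tested, 2 were called more positive (1.32%, near the 1.11% of the unigenes tested) and 4 more negative (2.63%, against 0.506%), with a median difference of -0.14. A BAG family co-chaperone (CL1982.Contig4), of a family that binds HSP70, stood at 1.63, 4.28 and 0.86 FPKM in young full light, 21, 270.4 and 156 in young low light, 125, 256 and 122 in mature full light, and 55.1, 16.3 and 66.6 in mature low light. Young full light was far below the other groups, and the mature groups did not overlap although light was not called there (1.98, adjusted p = 0.326). The difference was -7.03 (SE 1.18, adjusted p = 0.0235), and its cluster summed gave -6.94 (adjusted p = 0.0249). CL1982.Contig2 of that cluster differed by -6.0 (adjusted p = 0.0323). An HSP70 contig (CL1396.Contig3, chosen after its values were seen) had 9.04, 10.4 and 12.1 FPKM in full and 40.9, 17.6 and 24.4 in low light in young leaves, and 497, 661 and 873 in full and 118, 168 and 457 in low light in mature leaves. Mature full light was highest and full and low light did not overlap at either age (difference -2.9, SE 0.64, adjusted p = 0.0494), but the sum of its cluster of 10 contigs differed by -0.44 (adjusted p = 0.61). In the other direction, a dnaJ homolog (CL6390.Contig1), a co-chaperone that stimulates HSP70, had 142, 173 and 45.3 FPKM in full and 3.64, 1.8 and 3.12 in low light in young leaves, and 1.15, 0.65 and 0 in full and 1.32, 0.10 and 0.40 in low light in mature leaves. It was high in young full light alone (difference 4.8, SE 0.70, adjusted p = 0.0163), and the sum of its cluster differed by 2.04 (adjusted p = 0.395). The remaining calls of the list, chosen after their values were seen, were a mitochondrial bc1-complex chaperone (CL5558.Contig1), with a difference of -2.93, and a DnaJ-domain protein (Unigene491), with 1.67. An HSP82 contig (CL148.Contig1, chosen likewise), which the words of the list did not take in, differed by -3.67 (adjusted p = 0.0314), but the sum of its cluster differed by -0.71 (adjusted p = 0.344). The calls of CL1982.Contig4, CL1982.Contig2 and CL6390.Contig1 ended without young low light replicate 2 (adjusted p = 0.0673, 0.0905 and 0.0591), and those of CL1396.Contig3, CL5558.Contig1, Unigene491 and CL148.Contig1 in 8 to 11 of the 12 fits with 1 library left out (up to 0.106, 0.099, 0.136 and 0.0736).

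Among 24 heat shock factors, which bind the promoters of heat shock genes, 1 was called, more negative (4.17%, against 0.506%), with a median difference of 0.09 over the list. HSFA2 (Unigene15877), which in Arabidopsis prolongs the expression of heat shock proteins, had 0.05, 0.16 and 0.16 FPKM in full and 0.21, 0 and 0.05 in low light in young leaves, and 18.1, 17.9 and 21.2 in full and 4.19, 1.83 and 5.28 in low light in mature leaves. It was near 0 in young leaves at both light levels and higher in full than in low light in mature leaves without overlap (difference -2.1, SE 0.42, adjusted p = 0.0385). Its call ended in 10 of the 12 fits with 1 library left out, weakest without young low light replicate 2 (adjusted p = 0.099).

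Light-harvesting antenna proteins bind chlorophyll and pass its energy to the photosystems. The list stood lower in full light at both ages, with median light effects of -1.27 in young and -0.97 in mature leaves over 36 unigenes. In young leaves 15 of the 36 fell and 0 rose (against 2.32 and 3.02% of the unigenes tested). In mature leaves 5 fell and 0 rose (against 0.6 and 0.255%). A light effect that differed between ages was called for 2, both more positive in young leaves (5.56%, against 1.11% of the unigenes tested), and the median difference was -0.35. Chlorophyll a-b binding protein 40 (Unigene28445) had 5.42, 3.58 and 5.95 FPKM in full and 6.34, 9.7 and 2.47 in low light in young leaves, and 0, 0 and 0.39 in full and 8.95, 7.59 and 16.6 in low light in mature leaves. It was near 0 in mature full light and overlapped between full and low light in young leaves (difference 3.22, SE 0.59, adjusted p = 0.0309). An LHCII type 1 protein (Unigene34492, chosen after its values were seen) had 5.66, 4.83 and 8.36 FPKM in full and 5.39, 11.4 and 7.87 in low light in young leaves, and 0, 0 and 0 in full and 7.92, 5.73 and 16.9 in low light in mature leaves. Again only mature full light stood apart, listed at 0 in its 3 libraries (difference 3.04, SE 0.52, adjusted p = 0.0266). Both were minor members of the list, with at most 16.9 FPKM in any library. Both calls ended when any of 4 libraries was left out, namely replicates 1 and 3 of young full light and replicates 2 and 3 of young low light, that of Unigene28445 ended in 7 of the 12 fits in all, and 0 antenna calls were left without both low light libraries numbered 1.

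Photosystem subunits and electron carriers move electrons from water to NADP. They stood lower in full light in young leaves, and in mature leaves their median light effect was near 0. Over 51 unigenes the median light effect was -1.03 in young leaves and -0.01 in mature leaves, a median difference of -1.08. The 64 matched unigenes summed to 3212 to 5121 FPKM in young full and 10659 to 13956 in young low light. In mature leaves the sums were lower in full light too, without overlap, at 18959 to 20454 against 21518.5 to 25976 FPKM. In young leaves 18 of the 51 fell and 0 rose in full light (against 2.32 and 3.02% of the unigenes tested). In mature leaves 1 fell and 0 rose (against 0.6 and 0.255%). The difference was below 0 for 41 of 51 but called for 1 (1.96%, against 0.506%). Ferredoxin-2 (Unigene3402), which takes electrons from photosystem I, stood at 64.1, 52.4 and 33.5 FPKM in young full light, 241, 175 and 147 in young low light, 919, 1079 and 1056 in mature full light, and 884, 935 and 920.1 in mature low light. Young leaves held less in full light, and mature leaves held similar levels in both lights (difference -2.06, SE 0.37, adjusted p = 0.029). The call ended in 7 of the 12 fits with 1 library left out, weakest without young low light replicate 2 (adjusted p = 0.0858).

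In the Calvin cycle, which fixes carbon, 1 of 46 unigenes was called in each direction (2.17% each, against 1.11% more positive and 0.506% more negative) and the median difference was -0.42. Rubisco activase (Unigene11021), which frees Rubisco of bound inhibitors, had 17.8, 22.4 and 16.5 FPKM in full and 6.27, 6.51 and 5.63 in low light in young leaves, and 634, 901 and 895 in full and 730.3, 959 and 939 in low light in mature leaves. Full light was higher in young leaves without overlap, while mature levels overlapped (difference 1.59, SE 0.28, adjusted p = 0.027). GAPDH subunit A (CL2192.Contig4), which catalyses the reducing step of the cycle, had 153, 173 and 112 FPKM in full and 433, 398 and 315 in low light in young leaves, and 716, 995 and 852 in full and 841, 703 and 719 in low light in mature leaves. Young leaves held less of it in full light, and mature levels overlapped (difference -1.56, SE 0.33, adjusted p = 0.0462). The calls ended in 4 and 11 of the 12 fits with 1 library left out, weakest without young low light replicate 2 (adjusted p = 0.0829 and 0.128), and the sum of the CL2192 cluster gave -1.17 (adjusted p = 0.131). Among 29 chlorophyll enzymes and 47 photoprotection and repair proteins, limma called 0. At an unadjusted p under 0.05 were 3 and 10, against 9168 of the 50970 unigenes tested. The nearest to a call in the latter list, CURVATURE THYLAKOID 1A (CL5073.Contig2), which bends thylakoid membranes, had a difference of -1.28 (adjusted p = 0.0634). Its cluster summed was called, at -1.55 (adjusted p = 0.0323). The nearest chlorophyll enzyme, uroporphyrinogen decarboxylase (Unigene8305), had -0.60 (adjusted p = 0.231).

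Core and linker histones, which wrap DNA and are made mainly while DNA is copied, had a more positive light effect in young leaves. Of 34 unigenes tested, 12 were called more positive (35.3%, against 1.11%) and 0 more negative, with a median difference of 1.51. The median light effect was 1.26 in young leaves and -0.36 in mature leaves. In young leaves 19 of the 34 rose and 0 fell (against 3.02 and 2.32% of the unigenes tested). In mature leaves 0 were called for light (against 0.855%). The 45 matched unigenes summed to 6589, 5546 and 6759 FPKM in young full light and to 2683, 1895 and 2793 FPKM in young low light. The mature sums were 1412, 1106 and 1679 FPKM in full and 2046, 1403 and 1675 FPKM in low light. Young full light stood above every other library, and the mature groups overlapped.

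A histone H4 (CL443.Contig9) stood at 304, 197 and 324 FPKM in young full light, 73.9, 41.5 and 85.9 in young low light, 0.37, 1.8 and 2.02 in mature full light, and 11.5, 5.38 and 1.69 in mature low light. Young full light was highest without overlap with young low light, and both mature groups were under 12 FPKM (difference 3.45, SE 0.73, adjusted p = 0.0441). A histone H3 (Unigene8621) and a histone H2A (Unigene2076), both chosen after their values were seen, showed the same order. The H3 had 648, 488 and 645 FPKM in full and 136, 86.1 and 166 in low light in young leaves, and 3.7, 5.79 and 2.85 in full and 19.9, 11.8 and 4.25 in low light in mature leaves. Its difference was 3.4 (adjusted p = 0.0309). The H2A differed by 3.22 (adjusted p = 0.0202), from 363, 271 and 414 FPKM in young full and 84.3, 45.8 and 84.3 in young low light. The linker histone H1C (Unigene7110, chosen likewise) was the exception among the 12 in its mature level, at 258, 223 and 452 FPKM in mature full and 465, 360.4 and 567 in mature low light, in the range of young full light or above it (difference 2.11, SE 0.43, adjusted p = 0.0395). The other 8 called were H2A, H2B, H3 and H4 unigenes, from a histone H2A (Unigene1634, difference 1.5) to a histone H3.2 (Unigene88, 3.1). Histone copies are near-identical, so fragments may be shared between unigenes, and after summing clusters 11 of 31 were called.

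The number of called histones depended on single libraries. It was 0 without replicate 1 of young full light and 0 without replicate 2 of young low light, 1 without young full light replicate 3, 2 without young low light replicate 3 or mature full light replicate 2, 4 without mature full light replicate 3 or mature low light replicate 1, 5 without young full light replicate 2, and 9 to 10 without any of the other 4. The list median stayed between 1.22 and 1.60 in these 12 fits. It was 2 without both low light libraries numbered 1 and 8 after median-ratio rescaling (median 1.3).

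Cell cycle and mitosis genes drive and carry out division. Of 223 unigenes tested, 4 were called more positive and 0 more negative (1.79%, near the 1.11% of the unigenes tested). The median difference was 0.54. In young leaves 21 of the 223 rose and 1 fell in full light (against 3.02 and 2.32% of the unigenes tested). A ZW10 kinetochore protein homolog (CL1363.Contig1), needed to attach chromosomes to the spindle, had 9.51, 4.57 and 3.07 FPKM in full and 1.47, 0.63 and 0 in low light in young leaves, and 0, 0.45 and 0.48 in full and 0.88, 2.85 and 2.19 in low light in mature leaves. Young full light was highest and the mature groups lay in the other order (difference 3.1, SE 0.63, adjusted p = 0.0395), but its cluster summed gave 0.69 (adjusted p = 0.294). Cyclin-D1-1 (CL1517.Contig1, chosen after its values were seen), of the cyclins that start the cycle, differed by 2.31 (adjusted p = 0.0279), from 32.1, 28.2 and 31.7 FPKM in young full to 9.24, 14.9 and 14.2 in young low light. A cyclin T1 (CL4531.Contig2) and a cell division cycle ATPase (Unigene7557), chosen likewise, differed by 2.69 and 1.83, although T-type cyclins are known for roles in transcription. For 72 DNA replication unigenes limma called 0 for the difference, with a median of 0.50. At an unadjusted p under 0.05 were 24, against 9168 of the 50970 unigenes tested. Light was called as higher in young full light for 10 and lower for 1 (against 3.02 and 2.32% of the unigenes tested). Nearest to a call for the difference was the small chain of ribonucleotide reductase (CL6244.Contig2), which makes the building blocks of DNA (2.93, adjusted p = 0.0529). It was called after quantile normalization (adjusted p = 0.0469). The calls of CL1363.Contig1, CL1517.Contig1, CL4531.Contig2 and Unigene7557 ended in 10, 7, 5 and 11 of the 12 fits with 1 library left out, and the weakest adjusted p was 0.108, 0.0713, 0.0905 and 0.102.

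**Figure D3:**
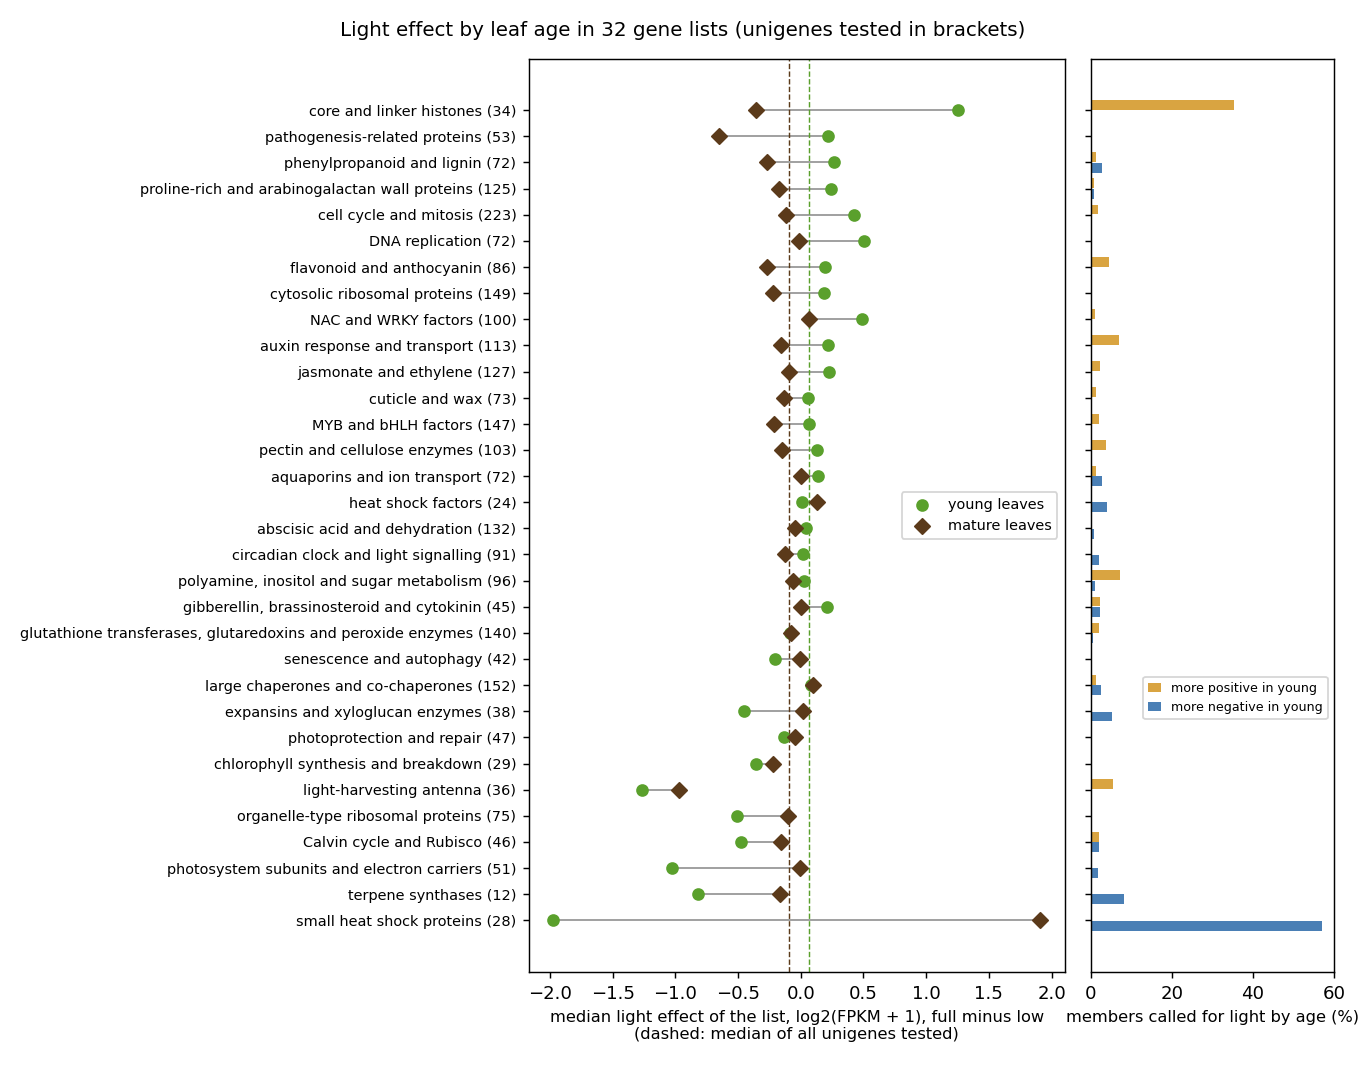
Left, median light effect (full minus low light, log2(FPKM + 1)) of 32 gene lists in young leaves (circles) and mature leaves (diamonds), ordered by the median difference, with dashed lines at 0.066 and -0.094, the medians of the 50970 unigenes. Right, percent of each list called for a difference between ages, where small heat shock proteins (57.1%) and histones (35.3%) stand far above the rest.

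Flavonoid genes make anthocyanins, flavonols and the tannin precursors catechin and epicatechin. Of 86 unigenes, 4 were called more positive in young leaves and 0 more negative (4.65%, against 1.11%), with a median difference of 0.48. Anthocyanidin reductase (Unigene3742), which makes epicatechin, stood at 402, 202 and 336 FPKM in young full light, 134, 162 and 131 in young low light, 3.26, 18.4 and 10.8 in mature full light, and 103, 64.1 and 134 in mature low light. The young groups lay apart by less than the mature ones, and mature full light was far below the other groups (difference 4.37, SE 0.68, adjusted p = 0.0201). Light alone was called in mature leaves only (-3.29, adjusted p = 0.0146). Leucoanthocyanidin reductase (Unigene16543), which makes catechin, had 37.9, 26.7 and 102 FPKM in full and 8.18, 10.9 and 13.3 in low light in young leaves, and 7.7, 12 and 6.22 in full and 69.7, 44.8 and 23.3 in low light in mature leaves. Full light was higher in young and lower in mature leaves without overlap (difference 4.24, SE 0.69, adjusted p = 0.0216). Flavanone 3-dioxygenase (CL2809.Contig2), an early step shared by these branches, had 31.1, 42.3 and 24.4 FPKM in full and 0.06, 2.75 and 1.69 in low light in young leaves, and 11.1, 14.6 and 6.08 in full and 9.3, 9.07 and 10 in low light in mature leaves. Here young low light alone was low (difference 3.82, SE 0.61, adjusted p = 0.0211), and its cluster summed gave 1.75 (adjusted p = 0.0872). The fourth call, a flavonol sulfotransferase (CL2819.Contig3, chosen after its values were seen), differed by 2.44 (adjusted p = 0.0462), and its cluster summed by 1.86 (adjusted p = 0.086). The first 3 calls ended in 2 or 3 of the 12 fits with 1 library left out, and the weakest adjusted p was 0.0614, 0.0688 and 0.0533. The list held 0 calls without replicate 1 of young full light, 0 without replicate 3 of young low light and 1 without replicate 2 of the latter.

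Of 72 phenylpropanoid and lignin genes, 1 was called more positive (1.39%, near the 1.11% of the unigenes tested) and 2 more negative (2.78%, against 0.506%). The median difference was 0.66. Laccase-12 (CL937.Contig1), of the enzymes that polymerise lignin, had 119.6, 117 and 106 FPKM in full and 54.1, 17.4 and 22.2 in low light in young leaves, and 0, 0.04 and 0.07 in full and 0.40, 0.23 and 0.57 in low light in mature leaves. It was highest in young full light and under 1 FPKM in mature leaves (difference 2.43, SE 0.47, adjusted p = 0.0348). Cinnamoyl-CoA reductase (Unigene13533), the first enzyme specific to lignin monomers, had 0.96, 0.05 and 6.82 FPKM in full and 59.97, 44.7 and 53.7 in low light in young leaves, and 0.05, 0.49 and 0.05 in full and 0.05, 0.05 and 0.15 in low light in mature leaves. It was high in young low light alone (difference -4.53, SE 0.80, adjusted p = 0.0279), as was another cinnamoyl-CoA reductase (Unigene13531, 73.7, 27 and 27.9 FPKM in young low light, difference -4.28), chosen after its values were seen. Among 12 terpene synthases, 1 was called, more negative (8.33%, against 0.506%). An enzyme of volatile monoterpenes, the ocimene/myrcene synthase (Unigene22204), stood at 0, 0.22 and 0 FPKM in young full light, 2.6, 0.95 and 0.32 in young low light, 119, 80.2 and 53.5 in mature full light, and 6.2, 8.7 and 14.5 in mature low light. Mature full light was far above the other groups and young leaves were under 3 FPKM (difference -3.95, SE 0.58, adjusted p = 0.0163). These 4 calls ended without young low light replicate 2 (adjusted p = 0.0917, 0.0822, 0.101 and 0.056) and, for Unigene13531, CL937.Contig1 and Unigene13533, without 10, 9 and 4 other single libraries.

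Wall and surface lists held few calls, and their direction differed by list. Among 38 expansins, which loosen walls, and xyloglucan enzymes, 0 were called more positive and 2 more negative (5.26%, against 0.506%). Expansin-A4 (CL2042.Contig4) had 3.58, 8.85 and 0.99 FPKM in full and 41.5, 63.2 and 36.2 in low light in young leaves, and 0.31, 1.61 and 1.86 in full and 1.76, 0.15 and 0.45 in low light in mature leaves. It was high in young low light alone (difference -3.74, SE 0.78, adjusted p = 0.0433). Its cluster summed gave -3.24 (adjusted p = 0.118). Expansin-A8 (Unigene18569, chosen after its values were seen) was likewise high in that group, at 14.3, 45.7 and 21.3 FPKM and with a difference of -3.16 (adjusted p = 0.0323). Among 103 pectin and cellulose enzymes 4 were called more positive and 0 more negative (3.88%, against 1.11%). An invertase/pectin methylesterase inhibitor (CL4528.Contig1) had 209.8, 274 and 162 FPKM in full and 106, 98.6 and 138 in low light in young leaves, and 1.25, 0.55 and 0.27 in full and 3.4, 3.19 and 3.39 in low light in mature leaves. Levels were far higher in young leaves, and full light was higher in young and lower in mature leaves without overlap (difference 2.29, SE 0.35, adjusted p = 0.018). Light alone was called in mature leaves (-1.4, adjusted p = 0.0329), at 3.4 FPKM or less, and not in young leaves (0.89, adjusted p = 0.062). The cluster of CL4528.Contig1 summed gave 2.03 (adjusted p = 0.157). The other 3 calls, chosen after their values were seen, were the pectin methyltransferase QUA2 (CL989.Contig3, 2.14), a pectinesterase (Unigene14469, 1.55) and a cellulose synthase subunit (Unigene39769, 1.14), which ended in 4, 12 and 12 of the 12 fits with 1 library left out. Among 125 proline-rich and arabinogalactan wall proteins 1 was called in each direction (0.8% each, near the 1.11% and 0.506% of the unigenes tested). A glycine-rich wall protein (Unigene20542) had 432, 393 and 275 FPKM in full and 212, 183 and 146 in low light in young leaves, and 0, 0 and 0 in full and 0.83, 0.55 and 1.1 in low light in mature leaves. It was high in young leaves, higher still in full light, and near 0 in mature leaves (difference 1.87, SE 0.30, adjusted p = 0.0211). Fasciclin-like arabinogalactan protein 11 (CL1999.Contig1), which in Arabidopsis belongs to secondary walls, was highest in young low light, at 12.3, 9.54 and 11.1 FPKM, and differed by -2.51 (adjusted p = 0.0316). Of 73 cuticle and wax genes 1 was called (1.37%, near 1.11%), 3-ketoacyl-CoA synthase 17 (Unigene29370), which lengthens fatty acids. It had 36.9, 13.1 and 22.2 FPKM in full and 0.09, 0 and 0 in low light in young leaves, and 0, 0.05 and 0 in full and 0.05, 0 and 0 in low light in mature leaves. It reached 1 FPKM in young full light only, so it passed the limit on low values only through the group where it was high and had to differ, and its call is not read as a result (difference 4.49). The calls of expansin-A4, expansin-A8, CL4528.Contig1, Unigene20542 and CL1999.Contig1 ended without young low light replicate 2 (adjusted p = 0.125, 0.0808, 0.0648, 0.0688 and 0.0888) and without 1 to 9 other single libraries.

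Auxin genes were called in 1 direction, 8 more positive in young leaves and 0 more negative of 113 (7.08%, against 1.11%), with a median difference of 0.37. Auxin guides the growth and veining of young leaves and is moved between cells by dedicated carriers. An auxin-repressed protein (Unigene6549), the largest difference of the list, had 2.95, 5.76 and 3.95 FPKM in full and 1.91, 1.15 and 0.37 in low light in young leaves, and 0.79, 0 and 0 in full and 10.1, 2.51 and 3.51 in low light in mature leaves. Full light was higher in young and lower in mature leaves (difference 3.52, SE 0.66, adjusted p = 0.0316). The other members named here were chosen after their values were seen. Auxin transporter-like protein 4 (CL1458.Contig2), an auxin importer, had 57.8, 53.3 and 62.2 FPKM in full and 41.8, 50.9 and 62.6 in low light in young leaves, and 2.48, 5.35 and 3.53 in full and 23.1, 16.1 and 19.4 in low light in mature leaves. Young levels overlapped and mature full light was low (difference 2.3, SE 0.34, adjusted p = 0.0163). Its cluster summed, which takes in an amino acid transporter contig (CL1458.Contig8), gave 1.58 (adjusted p = 0.0319). Auxin transporter-like protein 2 (Unigene6987) had 37.2, 25.2 and 42.2 FPKM in young full light and 8.58, 5.33 and 11.9 in young low light, and was listed at 0 in the 6 mature libraries (difference 1.93, SE 0.41, adjusted p = 0.045). The auxin-conjugating enzyme GH3.5 (CL4673.Contig1) differed by 1.29 (adjusted p = 0.031), and its light effect was called in mature leaves alone (-0.91). The auxin-binding protein ABP20 (Unigene38352) stood at 883, 1149 and 914 FPKM in young full and 1328, 1798 and 1354 in young low light, and at 2.19, 1.26 and 2.31 in mature full and 10.3, 20.7 and 25.4 in mature low light. It was lower in full light at both ages without overlap, by more on the log2 scale in mature leaves (difference 2.09, SE 0.42, adjusted p = 0.0373). The list held 0 calls without young low light replicate 2, 1 without replicate 1 or 3 of young full light or replicate 3 of young low light, and 5 after median-ratio rescaling, where its median was 0.19.

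Other hormone lists held few calls. In 45 gibberellin, brassinosteroid and cytokinin unigenes 1 was called in each direction (2.22% each, against 1.11% more positive and 0.506% more negative). The more positive one, a gibberellin-regulated protein (Unigene1454) of a family of small cysteine-rich peptides, had 447, 246 and 692 FPKM in full and 16.2, 1.71 and 11.9 in low light in young leaves, and 0, 0 and 0 in full and 0.22, 0 and 0.54 in low light in mature leaves. Its level was high in young full light alone (difference 5.96, SE 0.83, adjusted p = 0.0143), with the largest difference among described unigenes that were more positive. The more negative one, BRU1 (Unigene13689, chosen after its values were seen), had 6.09, 3.49 and 4.12 FPKM in young low light and under 1 FPKM in the other 9 libraries. It passed the limit on low values only through young low light, so its difference of -2.17 is a description. In 132 abscisic acid and dehydration unigenes 1 was called more negative (0.758%, near 0.506%), a protein phosphatase 2C (Unigene35653), of a family that includes brakes on abscisic acid signalling. It stood at 2.37, 1.17 and 1.18 FPKM in young full and 6.22, 8.19 and 8.4 in young low light, and at 0.13 or less in mature leaves (difference -1.7, SE 0.36, adjusted p = 0.0446). In 127 jasmonate and ethylene unigenes 3 were called more positive (2.36%, against 1.11%). Ethylene response factor 4 (Unigene22269), a transcriptional repressor in Arabidopsis, had 131, 186 and 137 FPKM in full and 45, 25.9 and 28 in low light in young leaves, and 28.2, 11.1 and 22.3 in full and 29.2, 22.9 and 22.7 in low light in mature leaves. Young full light stood above the other groups, which overlapped (difference 2.54, SE 0.45, adjusted p = 0.0284). A lipoxygenase (CL1432.Contig1, chosen after its values were seen), of the enzymes that start jasmonate synthesis, showed the same order, with 155, 142 and 140.04 FPKM in young full and 45.9, 34.8 and 28.5 in young low light (difference 1.77). Ethylene-responsive factor 12 (Unigene19806, chosen likewise) differed by 1.93. In 91 circadian clock and light signalling unigenes 2 were called more negative (2.2%, against 0.506%). EARLY FLOWERING 4 (Unigene33903), part of the evening complex of the Arabidopsis clock, had 20.2, 16.2 and 31.6 FPKM in full and 55.6, 68.4 and 76 in low light in young leaves, and 13.1, 9.43 and 10.6 in full and 10.1, 5.07 and 10.6 in low light in mature leaves. It was highest in young low light (difference -1.93, SE 0.42, adjusted p = 0.0467). A UVR8-like protein (CL470.Contig2, chosen after its values were seen), named for the ultraviolet-B receptor, was highest there too, at 30.4, 24.1 and 24.3 FPKM (difference -1.65), and its cluster summed gave -1.54 (adjusted p = 0.0522). The time of day of sampling is not in the labels. Without young low light replicate 2 the call of Unigene1454 was kept, and those of the phosphatase, ethylene response factor 4, the lipoxygenase, EARLY FLOWERING 4 and the UVR8-like protein ended (adjusted p = 0.118, 0.0898, 0.108, 0.128 and 0.116).

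In polyamine, inositol and sugar metabolism 7 of 96 unigenes were called more positive (7.29%, against 1.11%) and 1 more negative (1.04%, against 0.506%), while the median difference was -0.01. Inositol oxygenase 1 (Unigene8528), which feeds inositol into wall sugars, stood at 72.5, 46.6 and 37.3 FPKM in young full light, 1.68, 2.32 and 3.01 in young low light, 0, 0.36 and 0 in mature full light, and 0.34, 0.33 and 4.03 in mature low light. It was high in young full light alone (difference 4.87, SE 0.67, adjusted p = 0.0143). A galactinol-sucrose galactosyltransferase (Unigene31675), which makes raffinose, was high there too, at 74.8, 59.3 and 56.7 FPKM against 4.99, 14.1 and 15.9 in young low light (difference 3.71, SE 0.69, adjusted p = 0.0316). S-adenosylmethionine decarboxylase (Unigene9115, chosen after its values were seen), which commits S-adenosylmethionine to polyamines, had 193, 123 and 212 FPKM in full and 10.8, 8.66 and 8.16 in low light in young leaves, and 297, 379.8 and 334 in full and 205, 256 and 179 in low light in mature leaves. Here the group that stood apart was young low light, which was low (difference 3.42, SE 0.32, adjusted p = 0.0034). Its light effect was 4.09 in young leaves (adjusted p = 7.41e-05) and 0.67 in mature leaves (adjusted p = 0.223), and the call was kept with each library left out. The more negative call, an invertase inhibitor-like protein (Unigene717), had 2.05, 2.59 and 2.94 FPKM in full and 6.39, 5.54 and 6.82 in low light in young leaves, and 29.7, 6.56 and 8.68 in full and 2.14, 3.23 and 0.34 in low light in mature leaves. Mature full light replicate 1 stood far above the other 2 libraries of its group (difference -3.37, SE 0.73, adjusted p = 0.0467). Without young low light replicate 2 the list held 1 more positive and 0 more negative calls.

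Among 140 glutathione transferases, glutaredoxins and peroxide enzymes 3 were called more positive (2.14%, against 1.11%) and 1 more negative (0.714%, near the 0.506% of the unigenes tested). A glutathione S-transferase (Unigene23863), which joins glutathione to reactive compounds, stood at 77.3, 60.4 and 82.1 FPKM in young full light, 123, 54.1 and 38.3 in young low light, 0, 0.53 and 2.86 in mature full light, and 60.4, 76.7 and 35.8 in mature low light. Young levels overlapped and mature full light was near 0 (difference 5.15, SE 0.72, adjusted p = 0.0145). A microsomal glutathione S-transferase (Unigene9283) had 26.6, 34.8 and 27.7 FPKM in full and 112, 55.9 and 48.8 in low light in young leaves, and 58.4, 46.5 and 49.7 in full and 29.6, 16.8 and 26.6 in low light in mature leaves. Young leaves held less and mature leaves more of it in full light, without overlap (difference -2.25, SE 0.43, adjusted p = 0.0331). The other 2 positive calls, a glutathione S-transferase (CL3322.Contig1) and an L3 form (Unigene7472), chosen after their values were seen, differed by 2.06 and 2.35 and ended in 10 and 11 of the 12 fits with 1 library left out. The cluster of CL3322.Contig1 summed gave 1.88 (adjusted p = 0.0711). Among 72 aquaporins and ion transporters 1 was called more positive (1.39%, near 1.11%) and 2 more negative (2.78%, against 0.506%). Aquaporin PIP2;2 (Unigene8899), a water channel of the plasma membrane, had 0.54, 0.27 and 0.40 FPKM in full and 2.81, 4.1 and 2.0 in low light in young leaves, and 26.3, 45.5 and 25.6 in full and 13.3, 9.42 and 11.4 in low light in mature leaves. Its level fell with full light in young leaves and rose in mature leaves, without overlap (difference -2.87, SE 0.39, adjusted p = 0.0136). Potassium transporter 4 (CL4699.Contig2) had 81.9, 130.4 and 68 FPKM in full and 34.1, 31.6 and 33.2 in low light in young leaves, and 46, 52.2 and 48.5 in full and 52.4, 45.7 and 58.2 in low light in mature leaves. It was highest in young full light (difference 1.51, SE 0.30, adjusted p = 0.0395). A high-affinity nitrate transporter of the NRT2 family (Unigene31039, chosen after its values were seen) was high in mature full light alone, at 20.1, 19.1 and 14.1 FPKM against 1.33, 1.97 and 2.88 in mature low light (difference -2.46). PIP2;2 kept its call with each library left out, and Unigene23863, Unigene9283, CL4699.Contig2 and Unigene31039 lost it without young low light replicate 2 (adjusted p = 0.0558, 0.0848, 0.112 and 0.0905).

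Transcription factor lists held 3 more positive calls among 147 MYB and bHLH factors and 1 among 100 NAC and WRKY factors, with 0 more negative in either. These shares were 2.04% and 1%, against 1.11% of the unigenes tested. MYB34 (Unigene21065), of a plant regulator family, had 14.7, 22.5 and 9.57 FPKM in full and 11.4, 12 and 10.8 in low light in young leaves, and 0.20, 0.41 and 1.21 in full and 6.02, 5.37 and 6.39 in low light in mature leaves. Young levels overlapped and mature full light was low (difference 2.5, SE 0.43, adjusted p = 0.0266). The other 2 calls, bHLH68-like factors (Unigene11230 and Unigene3616) chosen after their values were seen, differed by 1.76 and 1.52 and ended in 10 of 12 fits with 1 library left out. WRKY transcription factor 06 (CL2775.Contig1) had 119, 100.3 and 129 FPKM in full and 32.5, 27.5 and 22.3 in low light in young leaves, and 12.5, 22.1 and 18.2 in full and 23.3, 24.5 and 21.3 in low light in mature leaves. Young full light stood above the other 9 libraries (difference 2.45, SE 0.30, adjusted p = 0.00948). Its call was kept with each library left out, and that of MYB34 ended in 4 of 12 such fits (up to adjusted p = 0.0822). TTG1 (CL8169.Contig2), the partner of MYB and bHLH factors in Arabidopsis trichomes and flavonoids, was also highest in young full light, with 159.7, 88 and 107 FPKM in young full and 31.6, 28.2 and 34 in young low light (difference 1.93, SE 0.35, adjusted p = 0.0309). It was lost in 6 of 12 (up to 0.0933).

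Ribosomal, pathogenesis-related and senescence lists held 0 calls by limma. For 149 cytosolic ribosomal proteins the median difference was 0.42, with 14 at an unadjusted p under 0.05 (against 9168 of the 50970 unigenes tested). The nearest to a call was S16 (Unigene6952, 1.32, adjusted p = 0.0841). Of 75 organelle-type ribosomal proteins, 10 were called lower in young full light (against 2.32% of the unigenes tested). Their median difference was -0.42, with 15 at an unadjusted p under 0.05, the nearest being chloroplast L13 (Unigene15769, -1.17, adjusted p = 0.0696). For 53 pathogenesis-related proteins it was 1.10, with 18 at that level (nearest the transcriptional activator PTI6, Unigene3785, 2.35, adjusted p = 0.0574). For 42 senescence and autophagy genes it was -0.13, with 9 (nearest Unigene19, a senescence-abundant cysteine protease, -1.83, adjusted p = 0.0541). Other limma fits did call some of these. PTI6 and Unigene19 were called with clusters summed (adjusted p = 0.0497 and 0.0441), and L13 after median-ratio rescaling (adjusted p = 0.0439).

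Tissue markers were followed beside these lists. The 33 unigenes named for trichome, epidermis or guard cell summed to 748 to 861 FPKM in young full light, 562 to 653 in young low light, 229 to 367 in mature full light and 304 to 385 in mature low light. Of these, 1 was called more positive (TTG1, 3.03%, against 1.11% of the unigenes tested), and 0 had a mean under 1 FPKM in every group. The 10 vascular marker unigenes summed to 220 to 316, 184 to 228, 168 to 209 and 122 to 240 FPKM in the same groups, with 0 called. The 86 unigenes matched by words for organelle-encoded transcripts and ribosomal RNA summed to 1282 to 1718, 2403 to 3029, 8386 to 19170.4 and 5941 to 11967 FPKM, with 0 of 81 called. These words also took in look-alikes such as Unigene4317, so the sums are not organelle RNA alone. Nearest to a call in the last 2 lists were PHLOEM PROTEIN 2-LIKE A1 (CL338.Contig2, 1.64, adjusted p = 0.153) and a ribosomal RNA processing protein (Unigene4317, 0.85, adjusted p = 0.0739). The part of tissue makeup and of organelle RNA in the calls was not tested.

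Further described unigenes with large differences fell into patterns already seen. In mature leaves a channel protein for amino acids (CL2153.Contig1) had 3 libraries at 0 in full light but 79.1, 34.2 and 55.3 FPKM in low light, with overlapping young levels (difference 4.73, SE 0.67, adjusted p = 0.0149). Its cluster summed gave 0.30 (adjusted p = 0.533). A cytochrome P450 (CL978.Contig4), of the 71D monooxygenases, reached 1 FPKM in mature low light only, at 17.5, 17.7 and 25.6 FPKM. It too passed the limit on low values only through that group, so its difference of 4.2 is a description, and its cluster summed gave -0.24 (adjusted p = 0.83). An aspartyl protease (CL352.Contig5) had 18, 75.4 and 21.7 FPKM in full and 7.28, 9.9 and 7.65 in low light in young leaves, and 10.7, 11.1 and 12.3 in full and 37.4, 55.2 and 43.4 in low light in mature leaves. Full light was higher in young and lower in mature leaves without overlap (difference 3.69, SE 0.59, adjusted p = 0.0212), but its cluster summed gave 1.04 (adjusted p = 0.424). A calcium-binding protein (Unigene3569) crossed like the small heat shock proteins, with 1.15, 1.01 and 5.98 FPKM in full and 25.7, 28.8 and 22.9 in low light in young leaves, and 122, 65.2 and 147 in full and 11.8, 35.5 and 6.44 in low light in mature leaves. Full and low light did not overlap at either age (difference -5.91, SE 0.83, adjusted p = 0.0145). The erg-1 precursor (Unigene25337) was high in young full light alone, at 132, 138 and 98.8 FPKM against 7.24, 10.2 and 10.7 in young low light (difference 4.03, SE 0.48, adjusted p = 0.00849). A calmodulin (Unigene18008), which senses calcium, was highest there, at 11, 14.2 and 7.66 FPKM, and was listed at 0 in young low light (difference 4.13, SE 0.82, adjusted p = 0.0378). Its call ended with median-ratio rescaling, quantile normalization and a pseudocount of 0.1 (adjusted p = 0.062, 0.0672 and 0.0901). A DNA methyltransferase 1-associated protein (Unigene22962) differed by 3.72. The calls of CL2153.Contig1, CL352.Contig5, Unigene3569, Unigene18008 and Unigene22962 ended without young low light replicate 2 (adjusted p = 0.051, 0.0614, 0.0558, 0.106 and 0.108).

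**Figure D4:**
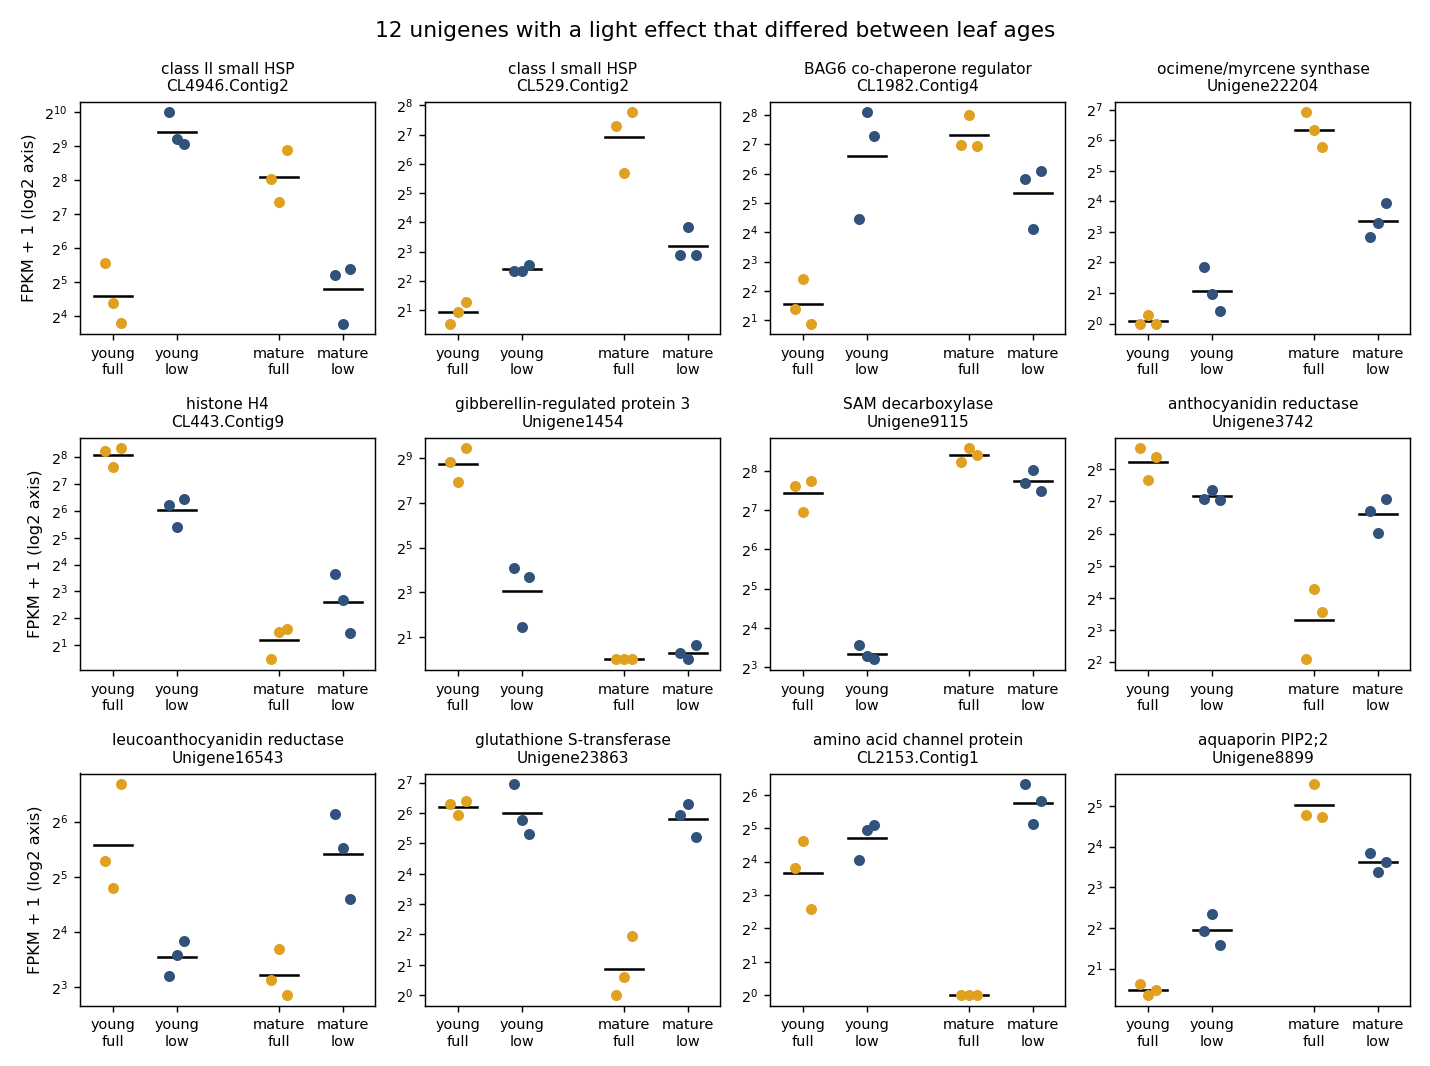
FPKM + 1 on a log2 axis for 12 unigenes, with 1 point per library in 4 groups and a bar at the mean of the log2 values. The upper row and aquaporin PIP2;2 are higher in mature full than in mature low light, the histone H4 and the gibberellin-regulated protein are highest in young full light, S-adenosylmethionine decarboxylase is lowest in young low light, and glutathione S-transferase, both flavonoid reductases and the channel protein are lower in mature full than in mature low light.

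At 21 unigenes the light effect was called at both ages in opposite directions. Those described include 5 of the small heat shock proteins above (CL4946.Contig2, CL2489.Contig2, CL2489.Contig3, CL529.Contig4 and CL529.Contig3) and PIP2;2, each fell with full light in young leaves and rose with it in mature leaves. In the other order were 4 named unigenes. HMG-Y-related protein A (Unigene19192), which binds AT-rich DNA, stood at 191, 152 and 175 FPKM in young full light, 70.1, 49.1 and 74 in young low light, 7.52, 5.74 and 7.29 in mature full light, and 18, 15.7 and 15.4 in mature low light. It crossed between ages, with no overlap of full and low light at either (difference 2.57, SE 0.26, adjusted p = 0.00366). HLS1 (CL3166.Contig1), which in Arabidopsis shapes the seedling hook, was listed at 0 in mature full light and had 16.1, 12.7 and 13.1 FPKM in young full light (difference 3.18, SE 0.39, adjusted p = 0.00948). A CCCH zinc finger protein (CL7417.Contig1) had 27.2, 38.8 and 24.5 FPKM in full and 12.9, 13.2 and 13.5 in low light in young leaves, and 15.8, 7.57 and 8.5 in full and 51.7, 35 and 32.3 in low light in mature leaves. Full light was higher in young and lower in mature leaves without overlap (difference 2.95, SE 0.39, adjusted p = 0.0119). An amino acid transporter (CL1458.Contig8) was near 0 in mature full light and had 46, 65.1 and 50.1 FPKM in young full light (difference 2.7, SE 0.32, adjusted p = 0.00825). Its cluster of 9 contigs, which also holds CL1458.Contig2, summed to a smaller difference of 1.58 (adjusted p = 0.0319). The light effects of that sum were 0.38 in young and -1.2 in mature leaves.

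Calls depended on single libraries, most on replicates 2 and 3 of young low light, the pair closest to each other. Leaving out young low light replicate 2 gave 60 calls, young low light replicate 3 106, young full light replicate 1 151, replicate 3 of that group 244 and replicate 2 355. Without mature low light replicate 1 there were 360, without mature full light replicate 2 373, without mature full light replicate 3 375 and without mature low light replicate 3 518. Without young low light replicate 1 there were 682, without mature full light replicate 1 630 and without mature low light replicate 2 699. All 60 calls made without young low light replicate 2 were among the 822, and 0 called unigenes turned sign in those of the 12 fits that tested them. The fits share most libraries with the one that made the calls, which favours both outcomes. Of 59 named and called unigenes 16 were kept with each single library left out, 41 lost the call in at least 1 fit, 2 (CL978.Contig4 and Unigene29370) were not tested in 3 of the fits, and 54 were weakest without young low light replicate 2.

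**Figure D5:**
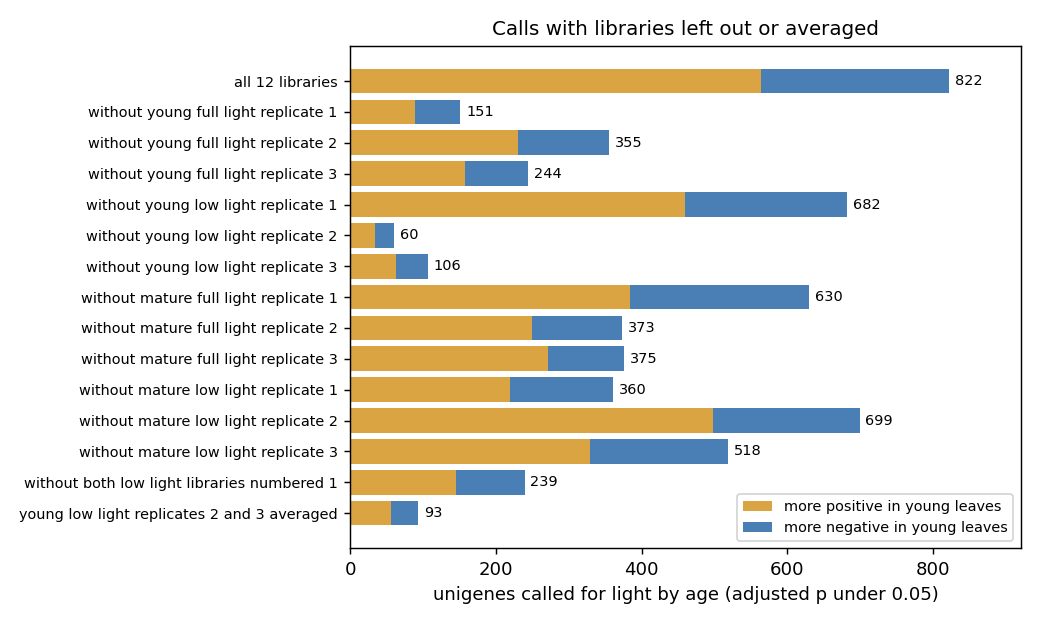
Number of unigenes called for a light effect that differed between leaf ages with 12 libraries, with each library left out, without both low light libraries numbered 1, and with young low light replicates 2 and 3 averaged, split by direction. Bars are shortest without young low light replicate 2 (60), with replicates 2 and 3 averaged (93) and without replicate 3 (106).

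Kept with every single library left out were 49 calls, 27 more positive and 22 more negative. They include 9 small heat shock proteins and 21 unigenes with a usable description. The largest of the 49, chosen after its values were seen, had no database hit (Unigene7807). It stood at 1.33, 1.49 and 0 FPKM in young full light, 0.21, 0 and 0 in young low light, 0, 0.21 and 1.66 in mature full light, and 659, 549.95 and 1163 in mature low light. It was abundant in mature low light and at or under 1.66 FPKM in the other 9 libraries (difference 9.74, SE 0.63, adjusted p = 0.000335). A fatty acid desaturase (Unigene6699, chosen likewise), which adds double bonds to membrane lipids, had 21, 16.3 and 20.1 FPKM in full and 104, 90.6 and 91.9 in low light in young leaves, and 116, 102 and 108 in full and 92.5, 72.6 and 89.7 in low light in mature leaves. Young full light was low and the other 9 libraries lay between 72.6 and 116 FPKM (difference -2.63, SE 0.22, adjusted p = 0.00222). A bHLH protein (CL4063.Contig2, chosen likewise) was found at over 2 FPKM in young low light only, at 18.6, 18 and 16.7 FPKM (difference -3.47, SE 0.46, adjusted p = 0.0117), and its cluster summed gave -1.81 (adjusted p = 0.0273).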

How the data were processed

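Leaf RNA of Schima superba was sequenced from 12 libraries, 3 in each of 4 groups set by leaf age and light. Per the labels' protocols, RNA was taken with a spin-column kit and libraries followed the standard Illumina protocol. The deposited FPKM values, 1 column per library, came from the authors, and RSEM 1.2.12 is named in the submitters' processing notes; the assembler, aligner and annotation database are not given in the sources used here. The table of the second species was not used here.

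Unigenes with at least 1 FPKM in at least 3 of 12 libraries were kept, and log2(FPKM + 1) was fitted with limma 3.58.1 in R 4.3.3 on the 4 group means, with a trended prior variance and Benjamini-Hochberg adjustment over 50970 unigenes for each contrast. The fit was tested on simulated data. The members and gene lists were chosen with earlier results of these data known, so no list is independent support. Lists were matched by words in the best-hit descriptions, which take in look-alikes; 17552 unigenes had a usable description. Named were the 15 largest called differences in each direction among described unigenes of at least 10 FPKM in the highest group, the largest called member of each list in each direction at 5 FPKM or, with none, the member nearest to a call, and the 10 largest called at both ages in opposite directions. Exceptions are marked in the text. The labels do not say that replicate numbers pair the libraries, so the fit had no block. Alternatives covered scaling, pseudocount, filters, the square root of FPKM, summed contig clusters, a replicate block, stricter thresholds and libraries left out. Sequences are not analysed here.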

Additional observations from a re-analysis of the deposited data

Results flagged for a closer look

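A limma test of the difference itself called 822 unigenes at an adjusted p under 0.05. That number fell to 93 with young low light replicates 2 and 3 averaged and to 60 without replicate 2. Whether these 2 libraries are separate samples is not given in the labels. Among described unigenes whose light effect was also called at each age, in opposite directions, 10 had the largest differences. More negative in young leaves were CL4946.Contig2 (-8.15), CL2489.Contig2 (-7.88) and CL2489.Contig3 (-7.86), which are class II small heat shock proteins. The class I proteins CL529.Contig4 and CL529.Contig3 followed with -5.26 and -5.19, and aquaporin PIP2;2 with -2.87. More positive in young leaves were HLS1 (3.18), a CCCH zinc finger protein (2.95), an amino acid transporter (2.70) and HMG-Y-related protein A (2.57). The call of CL529.Contig4 ended without young low light replicate 2, and the other 9 were kept with each library left out.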

How the results depend on the processing

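Signs of the called unigenes seldom turned, but the calls were made on these same libraries for differences large against their SE. Few could therefore turn. The share of calls that were more positive did move, from 68.6% to 48.3% with median-ratio rescaling and 50.1% with quantile normalization. Of the 822 unigenes, where tested, 1 turned sign with the square root of FPKM and 0 in the other settings that keep single contigs and were refitted. After clusters were summed, examined for the 59 named and called unigenes, CL978.Contig4 turned to -0.237 (adjusted p = 0.83). Counts called for the difference, in total, more positive and more negative, were 476, 327 and 149 with a pseudocount of 0.1, 239, 145 and 94 without both low light libraries numbered 1, 93, 56 and 37 with young low light replicates 2 and 3 averaged, and 36, 20 and 16 at an adjusted p under 0.01. In the same 4 settings light in young leaves was called for 1303, 1734, 620 and 416 unigenes, and in mature leaves for 117, 183 and 52 in the last 3. Median-ratio rescaling gave 353 more positive calls and quantile normalization 443 more negative ones. Leaving out 1 library gave 60 to 699 calls, 34 to 498 more positive and 26 to 246 more negative, 388 to 3382 for light in young and 120 to 485 in mature leaves. Summed clusters (879 calls), no variance trend (621), a mean of at least 5 FPKM (1084), no filter (678), the square root (1088) and a difference of at least 1 (817) stayed within 1.5 times of 822. The causes were not tested. The labels do not say that replicate numbers pair the libraries. Deviations from group means correlated by -0.027 to 0.324 in 18 same-numbered pairs and by -0.246 to 0.132 in 36 others. Of 12 libraries, 4 correlated best with their own number. The highest values joined young and mature libraries of the same light level, low light replicates 1 (0.324) and full light replicates 3 (0.287). Whether young and mature leaves were paired was not tested. With a replicate block there were 331 calls, 211 more positive and 120 more negative, and 262 for light in mature leaves. The sign of the list median turned after median-ratio rescaling for heat shock factors (-0.02), abscisic acid (-0.10) and circadian clock genes (-0.09), and after quantile normalization for gibberellin, brassinosteroid and cytokinin genes (0.10). Fragment totals are unknown, so precision at low FPKM cannot be stated.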

Other observations

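Most called unigenes carried no usable description, 329 of 822 having one, and some were among the most abundant. Unigene1138, chosen after its values were seen and without a database hit, had 12.1, 21.5 and 5.06 FPKM in young full light and 973, 1127 and 385 in young low light. Its mature levels were 3037, 5164 and 3067 FPKM in full and 3534, 4746 and 2202 in low light. Young full light was far below the other groups, the mature groups overlapped, and the call was kept with each library left out (difference -6.08 on the log2(FPKM + 1) scale).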
